A study of Mus musculus with 8 samples.

Results

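The genes described here carry the signal of interferons and of other cytokines that act through Janus kinases (JAK) and STAT transcription factors. They comprise 37 named genes in 8 roles, and a gene was a member if it was on this list, whatever its peaks. The list itself was chosen with earlier results of these data known. All 37 were found among the 21866 protein-coding genes of the annotation. In this pathway a cytokine brings receptor chains together, the Janus kinases bound to the chains phosphorylate STAT proteins, and the STATs enter the nucleus and switch on target genes. Interferon regulatory factors (IRF) act beside the STATs, and cytosolic sensors of viral RNA such as MDA5 and RIG-I start the production of type I interferon. In macrophages the pathway is known for antiviral defence and for setting the response to IFN-γ, IL-4, IL-6 and IL-10.

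N6-methyladenosine (m6A) was mapped in the RNA of bone marrow-derived macrophages (BMDMs) of 2 WT and 2 KO mice to ask which transcripts carry the mark when METTL3, the enzyme that writes it, is deleted. The mice were C57BL/6 and 8 weeks old, and bone marrow cells were grown for 7 days with M-CSF at 40 ng/mL, with no further stimulus named for these libraries. WT mice were *Mettl3*fl/fl Lyz2+/+ and KO mice *Mettl3*fl/fl Lyz2cre/+, so both carried the floxed alleles and only the KO mice carried Cre. Cre was driven by the *Lyz2* locus, which is also active in granulocytes and in some dendritic cells, and the labels name the genotypes wild type and Mettl3-/-. In MeRIP-Seq, RNA fragments pulled down with an m6A antibody are sequenced beside the input RNA, and stretches enriched over the input are listed as peaks. The 8 libraries gave 1 peak list per mouse, with 6159 peaks for WT-1 and 6263 for WT-2, and 6378 for KO-1 and 6684 for KO-2. Where a pair of values is given for a genotype, replicate 1 comes first. A list holds positions and a score but no read counts, so the depth is unknown, and a gene without a listed peak is not a gene without m6A. Input RNA was sequenced, but no level of RNA was taken from it here, so absence of a peak and low expression cannot be told apart.

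*Mettl3*, on chromosome 14 from 52294841 to 52305128, had 0 peaks in each of the 4 lists, so the deleted gene gave no check of the labels. Among macrophage markers, *Mertk* had a peak in all 4 lists, *Fcgr1* in both WT but no KO list, and *Cd14* in WT-2 only. *Csf1r*, *Adgre1*, *Itgam*, *Cd68*, *Lyz2* and *Spi1* had none, which says nothing about their expression. Of 4 T cell markers *Cd4* had a peak in both WT but no KO list, and of 4 fibroblast markers *Pdgfra* had one in 3 lists and *Col1a1* in KO-1. *Siglech*, 1 of 4 dendritic cell markers, had a peak in KO-1. None of the 4 B cell, 5 neutrophil and 3 erythroid markers had a peak in any list. The part of other cells in the results was not tested.

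Peaks were found on 29 of the 37 genes in at least 1 list (78.4%), where 31.9% of all 21866 protein-coding genes had a peak. The list was drawn from genes of a macrophage pathway, with earlier results of these data known, so its choice was not independent of the peaks. The background includes genes that these cells do not express. The shares here are therefore given side by side without a test. A peak was present in all 4 lists on 14 of the 29 genes (48.3%), against 30.5% of the 6971 genes with a peak in any list. These were *Irf2bp2*, *Irf2bpl*, *Stat2*, *Ifnar1*, *Ifnar2*, *Ifngr1*, *Il6ra*, *Il6st*, *Il10ra*, *Il4ra*, *Il13ra1*, *Ifih1*, *Ddx58* and *Pias1*. A peak in both WT but neither KO list was found on 1 of the 29 genes, *Jak1* (3.45%), close to the 3.97% of all genes with a peak. The reverse was found on 0 of the 29 genes, where the share over all genes was 4.89%. Both counts depended on the peaks and lists used. In the top-scoring 50% of each list they were 0 (3.14% over all genes) and 3 of 21 genes (4.16%). They were 3 and 3 without WT replicate 1 and 4 and 0 without WT replicate 2, where 1 list stands for a genotype. Without KO replicate 1 they were 2 and 2, and without KO replicate 2 they were 2 and 0. The shares over all genes were not taken with a list left out, so these counts cannot be set beside a background. The genes without a peak in any list were *Irf1*, *Irf7*, *Stat3*, *Stat4*, *Stat5b*, *Stat6*, *Jak3* and *Ifngr2*, 8 in all.

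**Figure D1:**
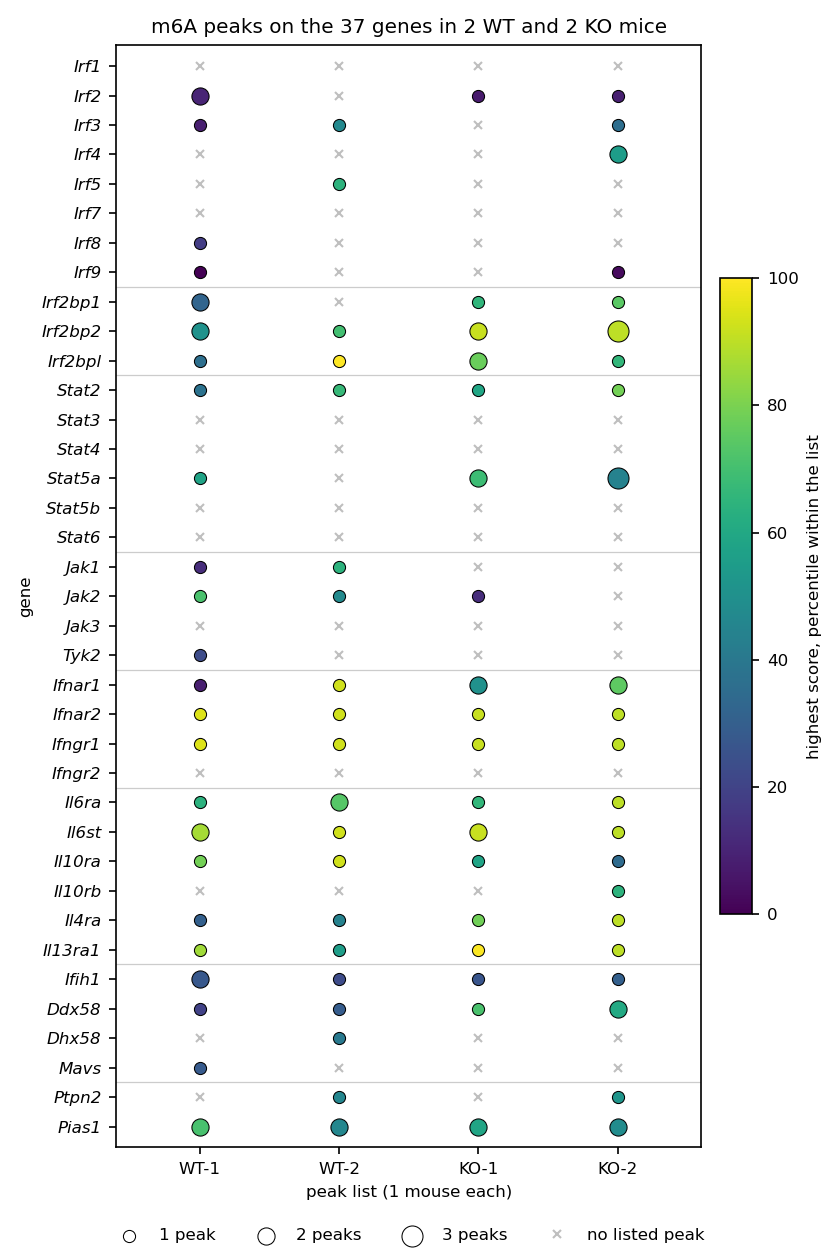
Peaks on the 37 genes (grouped by role) in the 4 peak lists (1 mouse each). The size of a circle gives the number of peaks, its colour the percentile of the highest score within the list, and a cross marks a gene with no listed peak. *Ifnar2* and *Ifngr1* stand near the top of each list, *Jak1* has circles in the WT lists only, and 8 genes have crosses in all lists.

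The WT lists held 24 and 20 of the genes with a peak and the KO lists 18 and 22, where over all 21866 genes the lists held 4164, 4346, 4176 and 4435 (19.0%, 19.9%, 19.1% and 20.3%). Per mouse this was 22 ± 2.83 genes for WT and 20 ± 2.83 for KO (SD, n = 2), and the genotypes overlapped (p = 0.667, exact permutation test, two-sided). The difference of -2 was 0 without WT replicate 1 or KO replicate 1 and -4 without WT replicate 2 or KO replicate 2. With 2 mice against 2 this test has 6 labellings and cannot give a p below 0.333. With only the top-scoring 50% of each list, KO lists held 4 more genes than WT lists, and with at least 50% of a peak required in exons the difference was -3.5, in both cases without overlap of the genotypes (exact p = 0.333). Over all genes the difference was 14 genes in the top-scoring 50% (10.8%, 11.4%, 10.7% and 11.7% of genes) and 32 genes with the exon requirement (18.7%, 19.6%, 18.8% and 19.9%), and there the genotypes overlapped. Peaks on the genes numbered 30 and 22 in the WT lists and 24 and 30 in the KO lists, or 26 ± 5.66 per WT mouse and 27 ± 4.24 per KO mouse (SD, n = 2; p = 1 by the same two-sided exact test). This difference of 1 peak rose to 6.5 in the top-scoring 50% of each list, without overlap (exact p = 0.333), and changed sign with other choices, to -1.5 with an equal number of peaks per list or stricter exon overlap, to -0.5 with exons of every transcript, to -3 without WT replicate 2 and to -2 without KO replicate 2. With all listed peaks and any exon overlap, neither difference was larger than the spread between mice of a genotype.

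The interferon receptor genes *Ifngr1* and *Ifnar2* were the only members of the 37 with a region at a score of 3100 or more in every list. They made up 2 of the 15 regions of these genes found in all 4 lists. Over all genes it was 293 of 2160 such regions, a similar share. *Ifngr1* encodes the ligand-binding chain of the IFN-γ receptor, and its peak had the same bounds in the 4 lists, chr10:19609137-19610229 on the plus strand of GRCm38. These 1093 bp are the whole of exon 7, the last exon, with 552 bp of CDS and 541 bp of 3′-UTR. The score was 3100 in each list. Over whole lists, 10.3% (WT-1) to 19.5% (KO-2) of the scores reached 3100, so this value stands at percentile 94.7 and 92.8 of the WT lists and 91.6 and 89.9 of the KO lists. The order of these percentiles follows from how many peaks of a list share the score, not from the gene.

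*Ifnar2*, a chain of the type I interferon receptor, also had a score of 3100 in each list. Its peak began at chr16:91403710, the start of exon 9, in all lists and was 1800 and 1745 bp wide in the WT lists and 1519 and 1734 bp in the KO lists. The other chain of that receptor, *Ifnar1*, had a region at chr16:91505055-91507802 in exon 11, again the last exon. There the percentiles differed widely, from scores of 109.57 and 3100 in the WT lists and 600.33 and 2301.93 in the KO lists (percentiles 8.30, 92.8, 50.04 and 75.2). The WT mice held both the lowest and the highest of these percentiles. WT-1 had 1 peak of 2385 bp there and WT-2 had 1 of 990 bp. KO-1 and KO-2 each had 2 separate peaks in the same exon, the first of 1039 bp in both. *Ifngr2*, the signalling chain of the IFN-γ receptor, had no peak in any list although its last exon is 2753 bp long.

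All 6 interleukin receptor genes had a peak in at least 1 list and 5 of them in all 4, beside 31.9% of all genes with a peak and 30.5% of those in all 4 lists. *Il4ra*, the chain that binds IL-4 and takes part in the IL-13 receptor, had a region at chr7:125575524-125579126 in exon 11, the last exon. Its scores were 271.6 and 586.28 in the WT lists and 2201.45 and 3100 in the KO lists, which are percentiles 30.3, 44.3, 78.5 and 89.9. Both KO mice stood above both WT mice. The peak was also wider in KO, with 1361 and 2597 bp in the WT lists and 3123 and 3603 in the KO lists. Its midpoint lay in the CDS in both WT lists and in the 3′-UTR in both KO lists. The median width of whole lists was larger in KO too (478 and 498 bp in WT, 501 and 543 bp in KO). How many regions over all genes had such an order of widths was not counted. *Il10ra*, the ligand-binding chain for IL-10, had the opposite order in exon 7 at chr9:45253837-45256441 on the minus strand. Its scores of 1468.7 in WT-1 and 3100 in WT-2 stood at percentiles 78.9 and 92.8, and those of 828.21 in KO-1 and 449.52 in KO-2 at 58.3 and 34.7. Both KO mice were thus below both WT mice.

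*Il13ra1*, a chain of the IL-13 receptor, had a region at chrX:36168814-36169756 in exon 11. The scores were 2261.02 and 840.21 in the WT lists and 3118.43 and 3100 in the KO lists, or percentiles 85.8, 55.8, 99.6 and 89.9, with both KO mice above both WT mice. *Il6ra*, the IL-6 binding chain, had a region at chr3:89869324-89871386 in exon 10 with scores of 784.02 and 1679.69 in the WT lists and 1139.02 and 3100 in the KO lists. The percentiles of 63.8, 73.7, 65.9 and 89.9 overlapped between genotypes. In *Il6st*, which encodes the shared signal transducer gp130, a region at chr13:112503705-112506439 in exon 17 had a score of 2367.78 in WT-1 (percentile 86.4) and 3100 in WT-2 (92.8), KO-1 (91.6) and KO-2 (89.9). WT-1 and KO-1 each had a further peak in its 3′-UTR of 5641 bp. *Il10rb*, the second chain of the IL-10 receptor, had 1 peak in KO-2 and none elsewhere.

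Of the 4 Janus kinases, 3 and 2 had a peak in the WT lists and 1 and 0 in the KO lists, where the share over all genes was 19.0% and 19.9% in WT and 19.1% and 20.3% in KO. *Jak1*, the kinase that serves both classes of interferon receptor and gp130, had 1 peak in WT-1 at chr4:101152808-101153531 and 1 in WT-2 at chr4:101152711-101153590, on the minus strand, and none in KO-1 or KO-2. Both peaks crossed the stop codon in exon 25, the last exon, with 37 bp of CDS and 687 bp of 3′-UTR in WT-1 and 96 bp of CDS and 784 bp of 3′-UTR in WT-2. The WT-1 peak lay wholly within the WT-2 peak. The score was 136.41 in WT-1 and 1123.14 in WT-2, at percentiles 12.8 and 64.1, so the WT-1 peak was among the weaker peaks of its list. *Jak1* was not among the genes with a WT-only peak when only the top-scoring 50% of each list was used.

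*Jak2*, which serves the IFN-γ receptor, had a peak in exon 7 in WT-1 and KO-1 with the same bounds, chr19:29282317-29282638, which is 322 bp of CDS. It stood at percentile 71.4 in WT-1 and 12.6 in KO-1. WT-2 had a peak in the 3′-UTR of *Jak2* instead, and KO-2 had none. *Tyk2*, a kinase of the type I interferon receptor, had 1 peak in WT-1 only, and *Jak3*, which pairs with the common γ chain, had none. The low number of Janus kinases with a peak in KO was noticed after the values were seen, and no test was made of it.

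**Figure D2:**
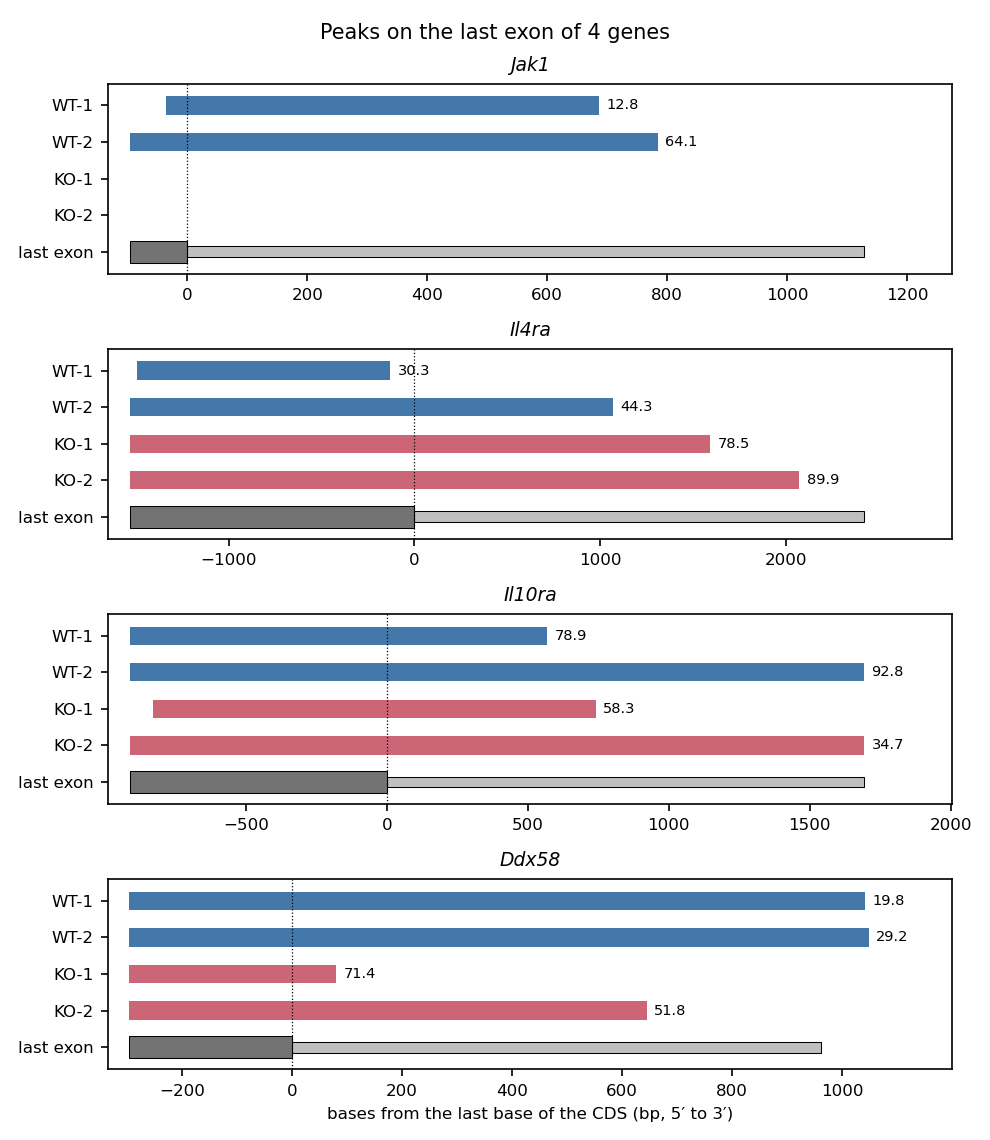
Peaks on the last exon of *Jak1*, *Il4ra*, *Il10ra* and *Ddx58*, drawn to scale in bp from the last base of the CDS. Bars are peaks (WT blue, KO red) labelled with the percentile of their score within the list, and the lowest bar is the exon, dark for CDS and light for 3′-UTR. *Jak1* has bars in WT only, and the *Il4ra* percentiles run from 30.3 in WT-1 to 89.9 in KO-2.

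Among the 6 STAT genes, *Stat2* and *Stat5a* had peaks, beside 31.9% of all genes. STAT2 joins IRF9 in the complex that type I interferon activates. Its region at chr10:128291228-128292849 covers exon 24, the last of the gene, and had scores of 346.64 and 1264.83 in the WT lists and 857.66 and 2794.35 in the KO lists. The percentiles of 37.7, 67.1, 59.2 and 78.9 overlapped between genotypes. *Stat5a*, a mediator of GM-CSF signals, had 1 peak in WT-1 and none in WT-2, but 2 and 3 in the KO lists, all on internal exons. Regions at exon 9 and at exons 10 to 11 were found in both KO but neither WT list, and a region at exons 6 to 7 in WT-1 and KO-2. In each of these 6 peaks more than 50% of the bases lay outside the exons, so the count for *Stat5a* rests on partial overlaps. *Stat3*, the factor that the study follows, lies at chr11:100885098-100939540 on the minus strand and had 0 peaks in each list, with no score or percentile to give. Its longest coding transcript of 4516 bp has 24 exons and 11 GGAC sites. *Stat4*, *Stat5b* and *Stat6* had no peak either.

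None of the 8 interferon regulatory factors had a peak in all 4 lists, and 6 of them had a peak in at least 1 (over all genes, 30.5% of those with a peak and 31.9%). *Irf2*, a repressor of interferon targets, had 2 peaks in WT-1 and 1 each in KO-1 and KO-2, at percentiles of 9.86 or below. *Irf3*, the factor that sensors activate to induce IFN-β, had a peak across its stop codon in exon 8 in WT-1 and WT-2 (percentiles 8.55 and 46.9), and in KO-2 a peak in exon 1 instead. Its last-exon region was thus found in both WT but no KO list, although the gene had a KO peak. *Irf4* had 2 peaks in KO-2, *Irf5* 1 in WT-2 and *Irf8* 1 in WT-1, and none in the other lists. *Irf9* had 1 peak each in WT-1 and KO-2, at percentiles of 2.42 or below. *Irf1* and *Irf7*, which interferon itself induces, had none.

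All 3 genes of the IRF2-binding proteins, which are corepressors, had peaks (31.9% over all genes), mostly with the midpoint in the CDS. *Irf2bp2* had a region at chr8:126590665-126591828 in exon 2 with scores of 78.7 and 1430.15 in the WT lists and 3100 and 3100 in the KO lists. The percentiles were 3.08, 69.8, 91.6 and 89.9, so that both KO mice stood above both WT mice, but the WT mice differed more from each other than WT-2 did from either KO mouse. *Irf2bpl*, a gene of 1 exon, had a region at chr12:86880703-86883500 with scores of 332.63 and 3227.04 in the WT lists and 2031.83 and 1471.12 in the KO lists. Here the WT mice held the lowest and the highest percentile (36.3 and 99.9), with the KO mice at 77.2 and 65.6. *Irf2bp1*, also of 1 exon, had 2 peaks in WT-1, none in WT-2 and 1 each in KO-1 and KO-2.

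The sensors *Ifih1* (MDA5) and *Ddx58* (RIG-I) had a peak in all 4 lists. The *Ifih1* region at chr2:62645478-62646255 lies in exon 1, at the 5′ end of the coding sequence. Its scores of 245.98 and 277.04 in the WT lists and 260.42 and 372.13 in the KO lists stood at percentiles close together (27.3, 23.0, 26.4 and 30.1). Of the other regions found in all lists, 1 more, on *Pias1*, lay outside the last exon. *Ddx58* had a region at chr4:40204761-40206106 in exon 18, the last exon. The scores were 184.9 and 354.03 in the WT lists and 1484.46 and 833.5 in the KO lists, or percentiles 19.8, 29.2, 71.4 and 51.8, with both KO mice above both WT mice. The peaks with the higher percentiles were narrower, 378 bp in KO-1 and 943 bp in KO-2 against 1339 bp in WT-1 and 1346 bp in WT-2. Such an order of widths was not counted over all genes. *Dhx58* (LGP2), a regulator of the other sensors, had 1 peak in WT-2, and *Mavs*, their adaptor on mitochondria, 1 in WT-1.

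Of the negative regulators, *Pias1*, an inhibitor of STAT binding to DNA, had 2 regions in all 4 lists. The one in exon 2, at chr9:62951855-62952200 in the CDS, had scores of 1029.4 and 623.69 in the WT lists and 842.83 and 734.34 in the KO lists (percentiles 71.0, 46.2, 58.9 and 48.0). The one in exon 14, at chr9:62880094-62882143, had scores of 843.47, 226.17, 296.48 and 88.3 in the same order (percentiles 66.0, 18.4, 29.8 and 4.03). Both overlapped between genotypes. *Ptpn2*, a phosphatase that acts on Janus kinases and STATs, had 1 peak each in WT-2 and KO-2, at different places.

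In all, the peaks on the 37 genes formed 45 regions, of which 15 were found in all 4 lists (33.3%, against 18.5% of 11649 regions on all genes). Found in both WT but neither KO list were 3 regions (6.67%, against 3.43%), on *Jak1*, *Irf3* and exon 3 of *Ifih1*, and the reverse held for 2 regions (4.44%, against 6.06%), both on *Stat5a*. The WT-2 peak of the *Ifih1* region touched no exon of the gene and was not counted among its peaks. Of the 15 regions in all lists, 4 had both KO percentiles above both WT percentiles, those of *Irf2bp2*, *Il4ra*, *Il13ra1* and *Ddx58*, where 18.9% of 2160 such regions on all genes did. The reverse was seen for 3, those of *Ifnar2*, *Ifngr1* and *Il10ra*, where the share over all genes was 23.8%. *Ifnar2* and *Ifngr1* were at 3100 in every list, so their order is fixed by ties. Without regions at 3100 or more in all lists, a choice made after seeing the data, *Il10ra* was 1 of 13 (background 12.0%) and the regions higher in KO were 4 of 13 (background 21.9%). For each of these regions an exact permutation of the 4 lists gave p = 0.333, the smallest possible here, and percentiles rank a peak within its list and are not m6A levels.

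Peaks on these genes lay mostly in the last exon, which 76 of the 106 peaks touched, and 61 of 106 covered bases on both sides of the stop codon. The last exon was touched by 70% and 86.4% of the peaks in the WT lists and by 70.8% and 63.3% in the KO lists, where all assigned peaks gave 62.0%, 65.7%, 57.2% and 59.6%. The stop codon was covered by 56.7%, 72.7%, 54.2% and 50% of them, against 32.0%, 36.1%, 31.9% and 34.8% of all assigned peaks. Their median width was 798 and 933.5 bp in the WT lists and 964 and 1048 in the KO lists, where the lists as a whole had 478, 498, 501 and 543 bp. Peaks of equal width were not compared. Of the peaks whose midpoint could be placed on the longest coding transcript, 46.2% and 33.3% in the WT lists and 50% and 38.5% in the KO lists had it in the CDS, or 39.7% ± 9.07 per WT mouse and 44.2% ± 8.16 per KO mouse (SD, n = 2; p = 0.667, exact permutation test). The difference of 4.49 percentage points was smaller than the spread within a genotype and turned to -1.92 without WT replicate 2 and to -1.28 without KO replicate 1.

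The 29 genes with a peak and the 8 without were close in the length of their longest coding transcript and its number of GGAC sites, and less so in the last exon. The median length was 3605 bp with and 3741.5 bp without a peak, and the median number of GGAC sites 16 and 17.5. The last exon had a median of 1662 bp in genes with a peak and 1087 bp in genes without, where it ran from 198 bp (*Irf7*) to 2753 bp (*Ifngr2*). Among all genes with a peak the median last exon was 1712 bp, and among all protein-coding genes 1122 bp.

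GGAC, the core of the sequence in which METTL3 methylates adenosine, was searched on the transcript strand of each peak. It was found in 96.2% and 95.2% of the placed peaks on these genes in the WT lists and 90.9% and 88.5% in the KO lists, against 87.6%, 88.9%, 88.1% and 88.9% of all placed peaks. Since the peaks on these genes are wider, windows of equal length are the fairer comparison. In the central 200 bp GGAC was found in 50%, 57.1%, 54.5% and 50% of them, against 62.1%, 64.5%, 62.4% and 61.8% of all. Over the 29 genes, the transcripts held 4.48 GGAC sites per kb under peaks of any list and 4.21 per kb outside, and 12 of the 29 genes were denser under their peaks.

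Stretches of 120 bases of coding sequence are shown for the 13 genes with a region found in all 4 lists and enough shared CDS, to give the sequence under peaks that no list lacked. Each is the first window with the most GGAC within the CDS bases that the 4 lists share, taken from GRCm38, written 5′ to 3′ on the strand of the gene, with GGAC in capitals. A GGAC in a peak is a match of letters and not a mapped m6A site.
Ifngr1, exon 7, plus strand, chr10:19609494-19609613: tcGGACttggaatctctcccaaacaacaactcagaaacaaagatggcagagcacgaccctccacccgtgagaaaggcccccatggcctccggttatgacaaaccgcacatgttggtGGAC
Ifnar2, exon 9, plus strand, chr16:91404219-91404338: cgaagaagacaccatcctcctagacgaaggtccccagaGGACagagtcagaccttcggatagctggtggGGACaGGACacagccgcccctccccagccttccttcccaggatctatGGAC
Il4ra, exon 11, plus strand, chr7:125576459-125576578: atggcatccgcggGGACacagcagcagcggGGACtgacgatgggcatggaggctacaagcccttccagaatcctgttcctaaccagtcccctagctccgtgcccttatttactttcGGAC
Il10ra, exon 7, minus strand, chr9:45256160-45256279: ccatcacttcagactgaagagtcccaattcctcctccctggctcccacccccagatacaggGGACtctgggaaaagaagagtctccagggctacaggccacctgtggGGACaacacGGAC
Irf2bpl, exon 1, minus strand, chr12:86882132-86882251: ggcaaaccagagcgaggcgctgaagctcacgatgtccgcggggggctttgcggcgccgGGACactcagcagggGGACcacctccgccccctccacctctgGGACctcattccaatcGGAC
Ifih1, exon 1, minus strand, chr2:62645504-62645623: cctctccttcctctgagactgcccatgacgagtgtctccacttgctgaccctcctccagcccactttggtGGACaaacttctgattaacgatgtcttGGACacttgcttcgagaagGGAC
Irf2bp2, exon 2, minus strand, chr8:126591709-126591828: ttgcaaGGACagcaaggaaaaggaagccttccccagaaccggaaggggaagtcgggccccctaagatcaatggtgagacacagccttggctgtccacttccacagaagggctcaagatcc
Stat2, exon 24, plus strand, chr10:128291238-128291357: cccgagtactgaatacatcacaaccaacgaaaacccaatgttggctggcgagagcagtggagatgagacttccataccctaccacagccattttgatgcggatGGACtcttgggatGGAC
Ifnar1, exon 11, plus strand, chr16:91505270-91505389: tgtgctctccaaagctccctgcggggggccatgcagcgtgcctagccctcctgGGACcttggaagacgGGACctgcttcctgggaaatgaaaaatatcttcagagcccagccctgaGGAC
Il6ra, exon 10, minus strand, chr3:89871212-89871331: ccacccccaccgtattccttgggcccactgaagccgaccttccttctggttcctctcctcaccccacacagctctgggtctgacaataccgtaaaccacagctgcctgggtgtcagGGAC
Il6st, exon 17, plus strand, chr13:112504219-112504338: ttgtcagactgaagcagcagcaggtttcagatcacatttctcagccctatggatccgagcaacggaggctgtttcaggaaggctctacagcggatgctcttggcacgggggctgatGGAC
Ddx58, exon 18, minus strand, chr4:40205858-40205977: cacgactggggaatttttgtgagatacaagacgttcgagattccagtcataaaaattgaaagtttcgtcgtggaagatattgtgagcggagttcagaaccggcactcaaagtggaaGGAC
Pias1, exon 2, minus strand, chr9:62952081-62952200: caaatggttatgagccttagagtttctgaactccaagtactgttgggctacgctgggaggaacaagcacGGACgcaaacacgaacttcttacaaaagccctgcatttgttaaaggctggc
The windows of *Ifnar2* and *Irf2bpl* hold 4 GGAC each, those of *Ifnar1*, *Il4ra*, *Il10ra* and *Ifih1* 3, those of *Ifngr1* and *Stat2* 2 and the remaining 5 windows 1.

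The 724 bp shared by the WT peaks on *Jak1* held 3 GGAC, all in the 3′-UTR of exon 25. They are given because *Jak1* alone of the 37 genes had a listed peak in each WT list and none in KO, each within 30 bases of the minus strand of chromosome 4.
From chr4:101153167-101153196: gctgcatagcaaaGGACtgtgccgctggca
From chr4:101153126-101153155: gataaaaacttgtGGACttggctgacactc
From chr4:101152990-101153019: ctgctaccttttaGGACtgaagttttaagc

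Further genes of the pathway were taken from lists, also chosen with earlier results of these data known. Their counts can be set beside the shares over all genes. These were 31.9% of protein-coding genes with a peak and, of the genes with a peak, 30.5% in all 4 lists, 3.97% in WT only and 4.89% in KO only. Of 46 interferon-stimulated genes 45 matched the annotation and 29 had a peak. In all 4 lists a peak was present on 14, *Isg15*, *Rsad2*, *Gbp5*, *Gbp7*, *Irgm1*, *Irgm2*, *Iigp1*, *Parp9*, *Parp14*, *Dtx3l*, *Trim30a*, *Adar*, *Eif2ak2* and *Zbp1*. *Eif2ak2*, the kinase PKR that senses double-stranded RNA, stood at percentile 94.7 and 70.3 in the WT lists and 91.6 and 89.9 in the KO lists. A peak in both WT but no KO list was found on 3 of the 29 genes (3.97% over all genes), *Ifi47*, a guanosine triphosphatase, and *Oas2* and *Oas3*, enzymes that activate RNase L. Their percentiles were 29.8 and 14.7 for *Ifi47*, 0.658 and 19.2 for *Oas2* and 60.8 and 6.49 for *Oas3* in WT-1 and WT-2. *Tap1*, the transporter of antigenic peptides, was the reverse (1 of 29, with 4.89% over all genes), at percentiles 23.6 in KO-1 and 22.9 in KO-2. *Mx1*, *Bst2*, *Usp18* and *Ifitm3* were among the 16 without a peak.

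Of 23 other receptors that use Janus kinases, 10 had a peak (31.9% over all genes), with *Il21r*, *Il12rb1* and *Il7r* in all 4 lists and *Il15ra* in both KO but no WT list. Among 17 adaptors and kinases of nucleic-acid sensing, 12 had a peak, 7 of them in all 4 lists against 30.5% over all genes with a peak (*Traf3*, *Traf6*, *Tank*, *Cgas*, *Trim25*, *Tlr3* and *Ticam1*) and none by genotype. Of 18 other negative regulators 12 had a peak, with *Socs4*, *Socs5*, *Socs6*, *Socs7*, *Ptpn11*, *Pias2* and *Pias4* in all 4 lists. *Cish*, a STAT5 target that inhibits cytokine receptors, had peaks in both WT but neither KO list, at percentiles 44.4 in WT-1 and 25.0 in WT-2. *Socs2* and *Socs3* had none, and *Socs1* had 1 peak each in WT-2 and KO-1. Of 18 cytokine ligands 3 had a peak, and *Csf1*, the gene of M-CSF itself, had one in all 4 lists. No peak was listed on *Ifnb1*, *Ifng*, *Il6*, *Il10*, *Il4* or *Il13*.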

How the data were processed

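The unit of the values is the score of a peak as the authors' peak caller wrote it and as deposited, with 1 list per mouse. The peak names have the form used by MACS, and the settings of the caller are not given in the sources used here. The submitters' processing notes name cutadapt 1.9.3, HISAT2 2.0.4 and mm10. Scores were ranked within each list, as midrank percentiles, or used to select its top peaks. Raw scores are printed beside the percentiles and were compared between lists only in picking regions at 3100 or more in every list. Peaks were assigned to the protein-coding gene of GENCODE M21 with the largest exon overlap on the same strand (at least 1 bp), and midpoints were placed on the transcript with the longest CDS. Exons of coding transcripts of the full annotation were used. Exons of every transcript were used first, and the change was made with the counts in view, to come nearer to gene counts known from earlier results of these data; the basic annotation was also tried. With the exons used, 94.8% to 96.2% of each list was assigned.

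Peaks of the 4 lists that overlapped on a strand were merged into regions, each with its highest score per list. Counts per mouse were tested by exact permutation (two-sided) over all labellings. The members and lists were chosen with earlier results of these data known. All members are accounted for, with positions, scores and percentiles for genes with a region in all lists or a peak by genotype and for *Stat3*, and list genes are named when they had a peak in all lists or by genotype. Any other list gene or region named was picked after its values were seen. Alternatives were the top-scoring 50% of each list, an equal number of peaks per list (6159), stricter exon overlap, merging within 100 bp, other windows and motifs, a replicate block and each list left out. The functions were tested on simulated peaks. Python 3.11.15, pysam 0.24.0, numpy 2.4.6 and matplotlib 3.10.9 were used.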

Additional observations from a re-analysis of the deposited data

How the results depend on the processing

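Of 67 alternative values, 43 kept their direction or size, 16 moved and 8 changed sign. With only the top-scoring 50% of each list, KO lists held 4 more of the genes than WT lists in place of 2 fewer and 6.5 more peaks, without overlap of the genotypes (exact p = 0.333). Over all genes the difference there was 14 genes, with overlap. The whole lists held 6159 and 6263 peaks for WT and 6378 and 6684 for KO, without overlap. In that top 50%, 6 of 21 genes had a peak in all lists (23.9% of all genes with a peak there). A peak in both WT lists only was found on 0 (3.14%) and in both KO lists only on 3 (4.16%), *Irf2bp1*, *Il4ra* and *Ddx58*. The difference in peaks was -1.5 both with an equal number of peaks per list and with at least 50% of a peak in exons, where the difference in genes was -3.5 (exact p = 0.333). Exons of every transcript gave -0.5, and those of the basic annotation gave the same 106 peaks as the main choice; all 3 exon sets were compared with counts in view. With each list left out in turn, the difference in genes ranged from -4 to 0, that in peaks from -3 (without WT replicate 2; -2 without KO replicate 2) to 5, and that in the CDS share from -1.92 to 10.9 percentage points. Genes with a peak in WT only then numbered 2 to 4 and in KO only 0 to 3, since 1 list sufficed for a genotype. Those in all lists numbered 14 to 17. Shares over all genes were not taken with a list left out, so these 3 counts have no background. With a peak in at least 1 list of a genotype, chosen after seeing the data, 6 of 29 genes were WT only (22.6% over all genes with a peak) and 2 KO only (18.4%). Without regions at 3100 or more in all lists, also chosen after seeing the data, 1 region was lower in KO. GGAC was found in 92.7% of peaks as a mean of the lists, in 52.9% with the central 200 bp, and DRACH, a wider form of the motif, in 100%. The cause of the changes not explained by fewer peaks or lists was not tested. Controls were Cre-negative littermates, and the mouse numbers in the labels are close for WT and KO mice of the same replicate number, but which WT mouse pairs with which KO mouse is not stated. The replicate differences of WT and KO had a correlation of 0.00733 over 12350 regions, and with the replicate block the differences were -2 genes, 1 peak and 4.49 percentage points, with no call changed. Depth is unknown and 2 mice per genotype allow no p below 0.333.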

Other observations

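The peaks on these genes had bounds at the edges of exons more often than the lists as a whole. Their median width was also larger, and peaks of equal width were not compared. A start or end at the edge of an exon of the longest coding transcript was seen for 56.7% and 72.7% of these peaks in the WT lists and for 58.3% and 73.3% in the KO lists, where all assigned peaks gave 42.1%, 43.0%, 46.6% and 50.7%. Examples are the *Ifngr1* peak, which is exon 7 in each list, and the *Ifnar2* and *Il13ra1* peaks, which begin at the start of the last exon in each list. On *Ifnar1* each list had a peak that begins there, and KO-1 and KO-2 had a second that does not.

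The bases under peaks on these genes were shared to different degrees between mice. The shared bases over the bases in either list came to 0.483 for the WT pair, 0.642 for the KO pair, and it ran from 0.480 to 0.531 across the 4 pairings of WT with KO. Over all assigned peaks the values were 0.362, 0.522 and 0.377 to 0.399. On these genes, as over all genes, the KO mice were the pair with the highest value. Of the 106 peaks, 85 overlapped a peak on the same gene in another list and 61 did so in each of the other 3 lists. These counts were not made over all assigned peaks. For regions, the share found in all 4 lists was 33.3% on these genes and 18.5% on all genes.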
